A study of Homo sapiens with 6 samples.

Results

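Annexins and S100 proteins are families of calcium-binding proteins, many of which act at membranes, and some annexins work as pairs with an S100 protein. They were taken here as all probe sets whose annotation lists exactly 1 gene, where that gene was ANXA or S100A followed by a number, or S100B, S100P, S100G or S100Z. The rule used names only and no measured value. It found 69 probe sets for 31 genes, 12 annexins and 19 S100 genes, among the 18132 genes that the arrays represent by a probe set of 1 gene. Of the 31 genes, 17 passed a filter on low signal (8 annexins and 9 S100 genes), as did 11715 genes in all. The filter was a mean log2 signal of 5.45 over all arrays, the 40th percentile of the probe sets. The other 14 genes, 4 annexins and 10 S100 genes, are described by their signals.

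HMEC-1, an immortalised line of endothelial cells from small human skin vessels, was kept in serum-free MCDB131 medium. In 3 samples the cells had received EPC-Exos at 1e+11 particles per mL for 24 hours, and in 3 control samples an equal volume of PBS. The labels give EPC-Exos only as that abbreviation. From what is known of the study, these are vesicles secreted by endothelial progenitor cells, and the question was how they change the genes of the cells that receive them. All samples are of 1 cell line, and the labels do not say whether replicates are separate cultures. The p-values therefore cover only the spread between these samples, which may be technical, and no batch is given that could be set against the treatment. RNA was measured in bulk, so fewer expressing cells and less RNA per cell cannot be told apart.

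Annexins have a core of repeated domains that binds acidic phospholipids when calcium rises. They organise membrane domains, take part in exocytosis and endocytosis, and help to seal torn plasma membranes. S100 proteins are dimers of EF-hand subunits that open a binding face on calcium loading and hold target proteins there, and some are secreted and act on receptors such as RAGE. The families meet in complexes, of which the best known joins annexin A2 (ANXA2) to S100A10 on the endothelial surface, where it assembles plasminogen with its activator. S100A10 differs from its relatives in holding its target without calcium. Most S100A genes lie in 1 cluster on chromosome 1, beside the genes of the cornified envelope of skin.

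Promoters are shown for S100A10 and its partner ANXA2, and for S100A11, which is the next gene after S100A10. They are also shown for 4 of the genes that fell at the other end of the cluster (S100A6, S100A4, S100A3 and S100A13). S100A2, which fell there too, is not shown. Each line gives the 250 bases before the RefSeq gene start in GRCh38.p14, 5′ to 3′ on the gene's strand. Capitals mark matches, on either strand, to the TATA box as TATAAA, the GC box as GGGCGG, the CCAAT box by these letters or the AP-1 site as TGANTCA.
S100A10, chr1:151993860-151994109, minus strand: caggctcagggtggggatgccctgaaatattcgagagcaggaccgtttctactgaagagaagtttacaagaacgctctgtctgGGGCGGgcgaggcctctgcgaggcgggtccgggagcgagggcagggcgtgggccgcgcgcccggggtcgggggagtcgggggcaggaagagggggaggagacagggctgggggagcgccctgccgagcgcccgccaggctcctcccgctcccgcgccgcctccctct
ANXA2, chr15:60397987-60398236, minus strand: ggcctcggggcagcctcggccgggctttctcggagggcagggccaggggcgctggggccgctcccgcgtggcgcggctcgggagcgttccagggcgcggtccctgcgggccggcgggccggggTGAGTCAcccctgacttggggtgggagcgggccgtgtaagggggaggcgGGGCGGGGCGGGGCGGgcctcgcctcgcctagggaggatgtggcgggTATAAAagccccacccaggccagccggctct
S100A11, chr1:152037005-152037254, minus strand: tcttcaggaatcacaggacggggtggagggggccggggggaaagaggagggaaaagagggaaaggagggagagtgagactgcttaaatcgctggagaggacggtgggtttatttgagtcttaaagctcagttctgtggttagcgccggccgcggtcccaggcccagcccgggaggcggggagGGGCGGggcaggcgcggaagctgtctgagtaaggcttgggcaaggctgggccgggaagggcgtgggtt
S100A6, chr1:153535992-153536241, minus strand: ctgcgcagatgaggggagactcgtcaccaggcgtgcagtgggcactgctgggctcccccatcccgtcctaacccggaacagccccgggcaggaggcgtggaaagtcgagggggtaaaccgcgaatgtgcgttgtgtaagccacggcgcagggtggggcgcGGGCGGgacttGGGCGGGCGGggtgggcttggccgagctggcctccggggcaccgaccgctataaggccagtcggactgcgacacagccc
S100A4, chr1:153545807-153546056, minus strand: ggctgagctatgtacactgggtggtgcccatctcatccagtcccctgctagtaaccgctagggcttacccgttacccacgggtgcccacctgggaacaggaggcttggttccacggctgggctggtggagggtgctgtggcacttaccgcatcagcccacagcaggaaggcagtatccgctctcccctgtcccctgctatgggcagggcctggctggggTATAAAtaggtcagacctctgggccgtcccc
S100A3, chr1:153549259-153549508, minus strand: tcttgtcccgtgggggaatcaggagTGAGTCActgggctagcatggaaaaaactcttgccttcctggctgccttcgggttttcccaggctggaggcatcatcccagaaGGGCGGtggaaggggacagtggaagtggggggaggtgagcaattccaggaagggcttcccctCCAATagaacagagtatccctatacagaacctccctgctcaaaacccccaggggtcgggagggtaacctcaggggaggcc
S100A13, chr1:153634362-153634611, minus strand: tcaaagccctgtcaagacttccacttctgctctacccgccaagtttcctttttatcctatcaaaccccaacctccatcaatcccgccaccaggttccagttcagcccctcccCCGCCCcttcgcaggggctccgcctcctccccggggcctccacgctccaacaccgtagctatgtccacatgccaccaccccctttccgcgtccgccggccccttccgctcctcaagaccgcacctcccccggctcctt

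The NF-kB consensus was searched as well and was found in 0 of these 7 windows. RefSeq gave a promoter for 28 of the 31 members, among them all 17 that passed the filter. The ANXA2 and S100A4 promoters hold a TATA box that ends 25 bases before the start, and the other 5 hold none. GC boxes occur in 6 of the 7, with S100A4 as the exception, and in S100A6 a pair of them overlaps each other, as GC boxes also do in ANXA2. The window of S100A2, which is not printed, holds no GC box. No match of 1 motif overlaps a match of another. Of 35114 promoters of the same length, 10.7% hold a TATA box, 42.6% a GC box, 32.0% a CCAAT box, 6.6% an AP-1 site and 10.0% the NF-kB consensus. Those are all promoters of the reference, not only those of tested genes, so the member counts below are of an unlike set. Among the 9 tested members that fell with EPC-Exos, 6 hold a GC box, 2 a TATA box, 2 an AP-1 site, 1 a CCAAT box and 0 the NF-kB consensus. Among the 8 other tested members the counts were 4, 3, 1, 3 and 1. These matches are a description of the letters in the windows.

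After EPC-Exos, 6 of the 9 tested S100 genes fell and 0 rose, and of the 8 tested annexins 3 fell and 2 rose. The difference between the families was not tested. Calls were made where limma gave an adjusted p (Benjamini-Hochberg, over all tested genes) under 0.05, and 49.1% of all tested genes met this, 27.3% lower and 21.7% higher. In all 11 of the 17 members were called, 9 lower and 2 higher. The median log2 change was -0.53 over the 9 S100 genes, -0.02 over the 8 annexins and -0.01 over all genes tested. The series' design text sets a 1.5-fold change and an unadjusted p under 0.05. That was met by 4 of the 17 members, 4 lower and 0 higher, against 9.89% of all tested genes, 5.96% lower and 3.94% higher. The 4 were S100A3, S100A13, S100A4 and ANXA4. The arrays of the groups did not overlap in 10 of the 17 members, 9 of them lower, against 55.7% of all tested genes, 30.2% lower.

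**Figure D1:**
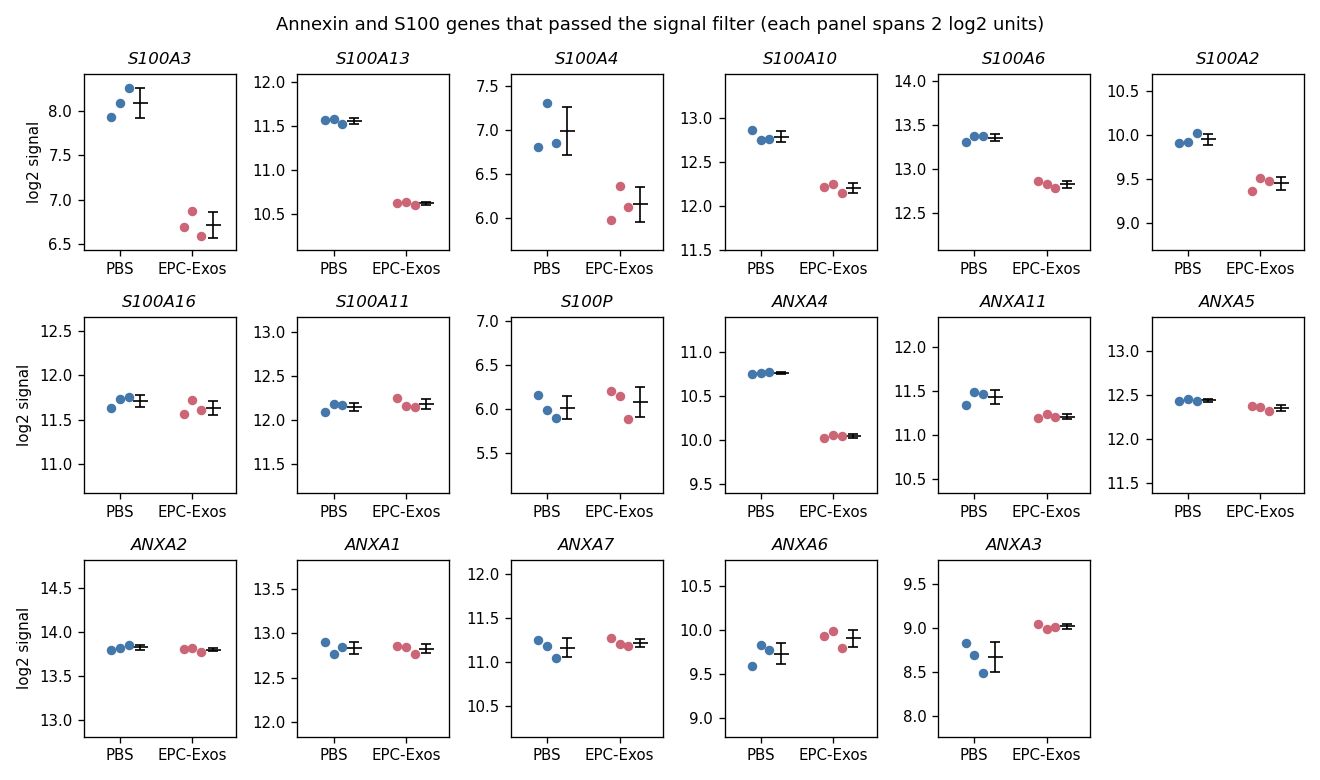
Log2 signal (vertical axis) of the 17 annexin and S100 genes that passed the signal filter, in 3 PBS and 3 EPC-Exos arrays (points), with the mean and SD of each group in black; every panel spans the same height. The 6 S100 genes of the top row and ANXA4 separate clearly, while S100A16, S100A11, S100P, ANXA1, ANXA2, ANXA7 and ANXA6 have overlapping groups.

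The arrays of the whole series were alike in scale, with median log2 signals between 6.25 and 6.34 over 49395 probe sets, correlations of 0.997 within groups and 0.988 to 0.989 between them, and at most 24 identical values in any 2 arrays. Of 20 endothelial markers, 10 had both means at or below 4.97, among them CDH5, and 4 of the 9 tested rose. That value was the highest mean among the 17 Tag controls, probe sets without a human target, and signals at or below it are called the background range here. The log2 of the summed signal of the endothelial markers was 11.27 to 11.46 with PBS and 11.70 to 11.73 with EPC-Exos. Of 15 leukocyte markers with a probe set, 10 were in the background range, PTPRC, CD14 and ITGAM among them. AIF1, CD3E and CSF1R lay above that range but under the filter. The 2 tested, LAPTM5 (8.87 with PBS and 8.95 with EPC-Exos) and ITGAX (6.56 and 6.78), were not called. Of 12 fibroblast and mural cell markers, 5 of 7 tested fell (ACTA2, COL1A1, COL3A1, DCN and PDGFRB), and the log2 of their summed signal was 11.995 to 12.13 with PBS and 10.84 to 10.99 with EPC-Exos. In that sum COL1A1 and COL3A1 had the highest signals with PBS, 11.07 and 10.22. MYH11 and DES were tested and not called. LUM, under the filter, read 5.97 ± 0.038 with PBS and 3.67 ± 0.044 with EPC-Exos (SD, n = 3), and RGS5 was also under it. COL1A2, CSPG4 and PDGFRA were in the background range. The fall of the 5 called markers moves with that of the 6 S100 genes, among which S100A4 and S100A6 are also expressed by fibroblasts. Its part in them was not tested. The keratinocyte list had 1 of 4 tested genes lower (CDH3) and the platelet and erythroid list 0 of 5 called.

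The 6 S100 genes that fell are described by size of change. S100A3, a cysteine-rich family member known from the hair cuticle, read 7.93, 8.09 and 8.27 log2 units in the PBS arrays and 6.69, 6.87 and 6.59 in the EPC-Exos arrays. Every treated array lay more than 1 log2 unit below every control array, so the spread within each group was small beside the gap. The fall was 2.61-fold (log2 change -1.38 ± 0.099, SE, n = 3 per group, adjusted p = 7.69e-09 in limma), the largest among the 17 members.

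S100A13 takes part in the secretion of proteins that lack a signal peptide, such as FGF1 and interleukin 1 alpha. Its log2 signals were 11.57, 11.58 and 11.52 with PBS and 10.63, 10.64 and 10.61 with EPC-Exos. Both groups were tight and far apart, and the 1.91-fold fall (-0.93 ± 0.043, adjusted p = 3.08e-11) had the smallest adjusted p of the family. The gene model overlaps that of S100A1 on the opposite strand, whose probe set lay under the filter at 5.13 ± 0.13 and 5.16 ± 0.051 (SD, n = 3).

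S100A4 binds non-muscle myosin and is linked to cell motility. It had 6.81, 7.30 and 6.85 with PBS and 5.98, 6.37 and 6.13 with EPC-Exos. The groups did not overlap, but PBS replicate 2 stood above the other controls. The probe set with the highest signal gave a 1.78-fold fall (-0.83 ± 0.13, adjusted p = 5.1e-05). The other 2 probe sets of the gene gave larger falls, -1.14 ± 0.13 and -1.13 ± 0.13, in the fit over all probe sets. An offset of 64 on the linear scale, which compresses low signals, reduced the change to -0.50.

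S100A10, the annexin A2 partner, read 12.85, 12.74 and 12.76 log2 units in the PBS arrays and 12.22, 12.24 and 12.14 in the EPC-Exos arrays. All treated arrays were lower, by a 1.50-fold change (-0.58 ± 0.039, adjusted p = 3.42e-09), just short of the design text's threshold. Its 2 probe sets gave the same value to 2 decimals. S100A6, or calcyclin, which binds the ubiquitin ligase adaptor CACYBP, had 13.31, 13.37 and 13.38 with PBS and 12.86, 12.83 and 12.78 with EPC-Exos. Its groups were also well apart, with a fall of 1.44-fold (-0.53 ± 0.032, adjusted p = 9.69e-10). S100A2, a mainly nuclear S100 protein that can bind p53, went from 9.91, 9.92 and 10.02 to 9.36, 9.50 and 9.48. That was a fall of 1.41-fold (-0.50 ± 0.061, adjusted p = 3.61e-06), with no overlap between groups.

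The other 3 tested S100 genes did not pass. S100A11, which pairs with annexin A1, had 12.09, 12.18 and 12.17 with PBS and 12.24, 12.15 and 12.14 with EPC-Exos (change 0.03 ± 0.040, adjusted p = 0.528). S100A16, a widely expressed member, had 11.64, 11.73 and 11.76 and then 11.57, 11.72 and 11.61 (-0.08 ± 0.047, adjusted p = 0.2). The groups overlapped in both genes. S100P, an S100 protein first found in placenta, had 6.16, 5.99 and 5.90 with PBS and 6.21, 6.14 and 5.88 with EPC-Exos, at much wider spread (0.06 ± 0.11, adjusted p = 0.683).

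**Figure D2:**
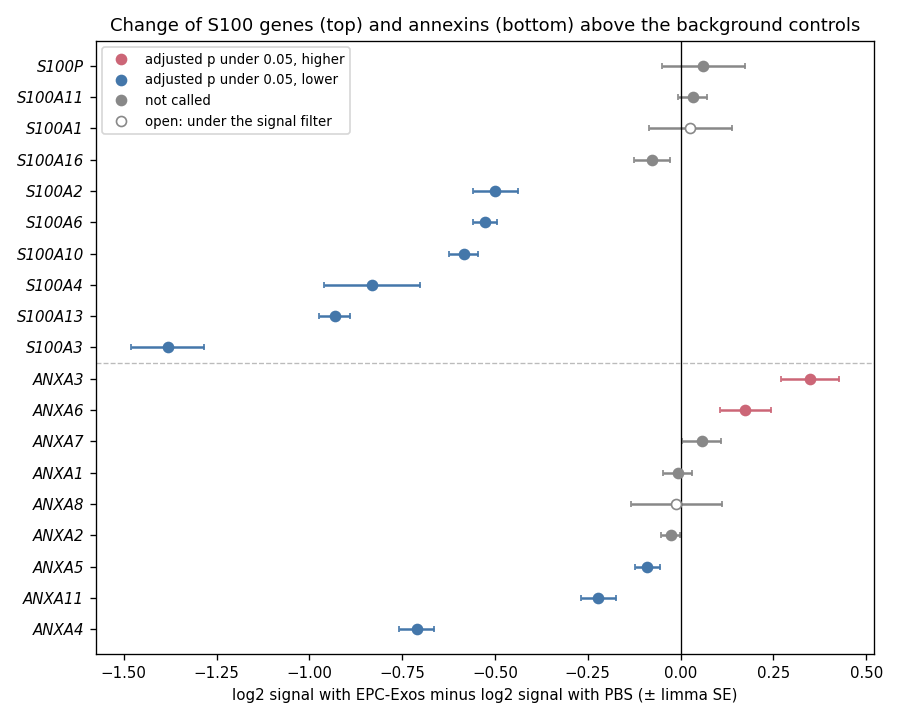
Change of the 19 member genes above the background controls in at least 1 group (horizontal axis, log2 signal with EPC-Exos minus PBS, bars are limma SE), with filled points for the 17 that passed the signal filter and open points for the 2 under it (ANXA8 and S100A1). The 6 S100 genes called lower lie between -1.38 and -0.50, and the other 3 tested S100 genes between -0.08 and 0.06.

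Among the annexins ANXA4, a calcium-dependent binder of membranes in exocytosis and repair, changed most. Its log2 signals were 10.74, 10.76 and 10.77 with PBS and 10.02, 10.06 and 10.05 with EPC-Exos. The arrays of each group were nearly equal, and the fall was 1.64-fold (-0.71 ± 0.048, adjusted p = 3.55e-09). Of its 9 probe sets, the 7 above the background controls in both groups fell by 0.64 to 0.87 on the log2 scale, and each was called. ANXA11, which binds the calcium sensor ALG-2 and tethers RNA granules to lysosomes, fell less, from 11.34, 11.49 and 11.47 to 11.19, 11.24 and 11.21. The groups did not overlap (-0.22 ± 0.047, adjusted p = 0.000887), and all 8 probe sets of ANXA11 had lower means with EPC-Exos, 5 of them called.

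ANXA3 is an annexin with a reported role in angiogenesis. It rose from 8.82, 8.69 and 8.49 to 9.05, 8.99 and 9.01, so that every treated array lay above every control (0.35 ± 0.078, a 1.27-fold rise, adjusted p = 0.00139). The other probe set of ANXA3 rose too, by 0.43 ± 0.12. ANXA6, the annexin with a duplicated core, had 9.60, 9.83 and 9.77 with PBS and 9.93, 9.99 and 9.80 with EPC-Exos. Its groups overlapped, and its call (0.17 ± 0.069, adjusted p = 0.0463) was lost in 9 of 19 alternative settings. When PBS replicate 1, EPC-Exos replicate 1 and EPC-Exos replicate 2 were left out in turn, ANXA6 had adjusted p-values of 0.183, 0.135 and 0.204 in limma, and the change without PBS replicate 1 was 0.11, so that only 1 of the 17 members stayed higher.

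ANXA5, the binder of phosphatidylserine used to stain dying cells, had 12.42, 12.45 and 12.43 with PBS and 12.37, 12.36 and 12.31 with EPC-Exos. The groups were apart but by little, and the call was marginal (-0.09 ± 0.034, adjusted p = 0.0375). It was lost in 9 of 19 alternative settings, among them the omission of PBS replicate 2, PBS replicate 3, EPC-Exos replicate 2 or EPC-Exos replicate 3, with adjusted p-values in limma of 0.125, 0.0515, 0.0603 and 0.163. Without the _x_at and _s_at probe sets, which can bind related transcripts, the remaining ANXA5 probe set of highest signal changed by -0.01, and the other that remained, named after its values were seen, by -0.25 (adjusted p = 0.026 in the limma fit over all probe sets). In that fit all 6 ANXA5 probe sets had lower means with EPC-Exos, and 3 were called.

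ANXA1, the anti-inflammatory ligand of formyl peptide receptors, had 12.90, 12.76 and 12.84 with PBS and 12.86, 12.85 and 12.77 with EPC-Exos (-0.01 ± 0.038, adjusted p = 0.886). In 4 alternative settings its small change took the other sign, without a call. ANXA2 had 13.80, 13.82 and 13.85 with PBS and 13.80, 13.81 and 13.78 with EPC-Exos (-0.03 ± 0.025, adjusted p = 0.427). Both genes had overlapping groups. The signal of the ANXA2 probe set used lay near the top of the arrays' range, which ended at 14.52, where changes can be compressed. The 6 probe sets of ANXA2 changed by -0.09 to 0.08, and 1 of them was called lower. Those of lowest signal, at 8.59 and 9.54 with PBS, changed by 0.08 ± 0.070 and -0.01 ± 0.059 and were not called. Compression itself was not tested. Some ANXA2 probe sets may also bind the processed pseudogene ANXA2P2, whose own shared probe set had a mean of 13.78 with PBS and 13.77 with EPC-Exos. ANXA7, a gene of membrane fusion in exocytosis, had 11.26, 11.19 and 11.05 with PBS and 11.27, 11.21 and 11.18 with EPC-Exos (0.06 ± 0.053, adjusted p = 0.401).

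**Figure D3:**
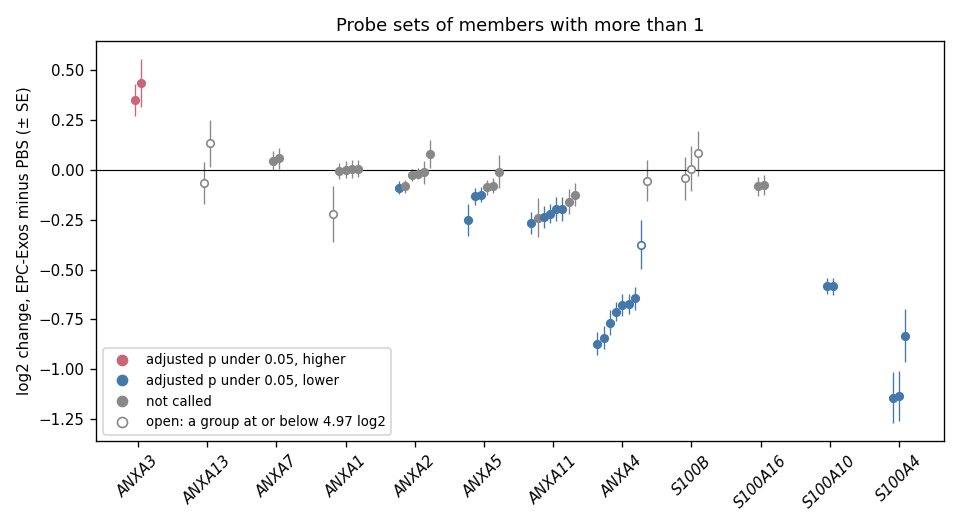
Change (vertical axis, log2 signal with EPC-Exos minus PBS, bars are limma SE) of every probe set of the 12 member genes with more than 1, from the fit over all 49293 probe sets that are no controls. Probe sets above the highest background control of 4.97 lie between -0.87 and -0.64 in ANXA4 and between -1.14 and -0.83 in S100A4. Those of ANXA5 spread from -0.25 to -0.01, with 3 of 6 called, and those of ANXA2 from -0.09 to 0.08, with 1 of 6 called.

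In the fit over all probe sets 29 of the 69 member probe sets were called, 26 lower and 3 higher, against 28.4% of all probe sets, 14.8% lower and 13.6% higher. Probe sets of 1 gene share its RNA and are not replicates. The 3 were both probe sets of ANXA3 and that of ANXA10, described with the low signals. Of the 26 that were lower, 8 were of ANXA4, 5 of ANXA11, 3 of ANXA5, 3 of S100A4 and 2 of S100A10, and ANXA2, S100A2, S100A3, S100A6 and S100A13 gave 1 each.

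Known partners were also set beside each other as differences within each array, over 3 pairs. The log2 difference of S100A10 minus ANXA2 changed by -0.56 with EPC-Exos, with SDs between arrays of 0.084 with PBS and 0.035 with EPC-Exos. The difference of S100A6 minus its annexin partner ANXA11 changed by -0.31, with SDs of 0.045 and 0.049. The difference between S100A11 and ANXA1 moved by 0.04, less than its SD of 0.11 with PBS. The exact two-sided permutation p was 0.1, 0.1 and 0.7, where 0.1 is the smallest that 3 against 3 arrays allow, so none could pass 0.05, and the adjusted values were 0.15, 0.15 and 0.7. The pairs were chosen after the values were seen, and the signal of the ANXA2 probe set used is near the top of the range. That probe set changed by -0.03, so the first difference largely restates the change of S100A10.

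The 14 members under the filter were at low signal in both groups, and 12 of them had both means in the background range. Among them were the calprotectin genes S100A8 (3.92 ± 0.20 with PBS and 4.19 ± 0.21 with EPC-Exos) and S100A9 (3.53 ± 0.090 and 3.55 ± 0.046) and S100A12 (3.84 ± 0.20 and 3.89 ± 0.13), which neutrophils and monocytes express at high levels. S100A5, S100A7, S100A14, S100B, S100G, S100Z, ANXA9 and ANXA13 were in the same range, with means between 3.31 and 4.69. The 2 above it were ANXA8 (5.40 ± 0.24 and 5.39 ± 0.029) and S100A1, given above. The ANXA8 reading is from the only probe set that lists it alone. Most probe sets that list ANXA8 beside other genes had higher signals and are described under other observations.

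ANXA10, an annexin of the gastric lining, read 4.06, 3.51 and 3.66 log2 units in the PBS arrays and 4.60, 4.87 and 4.98 in the EPC-Exos arrays. All treated arrays were higher, and the gene was called in the limma fit without the filter (adjusted p = 6.66e-06), which called 32.3% of its 18132 genes. Both means are at or below the highest Tag control, so no fold is given. Of the 14 members under the filter it alone was called in that fit. ANXA9, an annexin that does not bind calcium in the usual way, had 4.19, 4.27 and 4.24 with PBS and 4.10, 3.92 and 3.84 with EPC-Exos (adjusted p = 0.0598).

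Neighbouring genes of the chromosome 1 cluster differed in their calls. From S100A10 to S100A1 the RefSeq order holds 15 of the S100A members and 48 other protein-coding genes, among them S100A7A, which the rule leaves out. At the first end S100A10 fell while the adjacent S100A11 had a change of 0.03. At the other end S100A6, S100A4, S100A3, S100A2 and S100A13 fell, and S100A16, which stands between S100A2 and S100A13, did not pass. S100A5, between S100A6 and S100A4, and S100A14, beside S100A13, were in the background range. Of the 13 other genes between the ends that passed the filter, 1 was called, LCE1C, a late cornified envelope gene (-0.39 ± 0.093, adjusted p = 0.00221), named after its values were seen. Of the 10 tested genes among the 8 on each side, 4 fell and 2 rose. Over all tested genes 27.3% were lower and 21.7% higher, and the S100A genes were not tested against their neighbours.

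**Figure D4:**
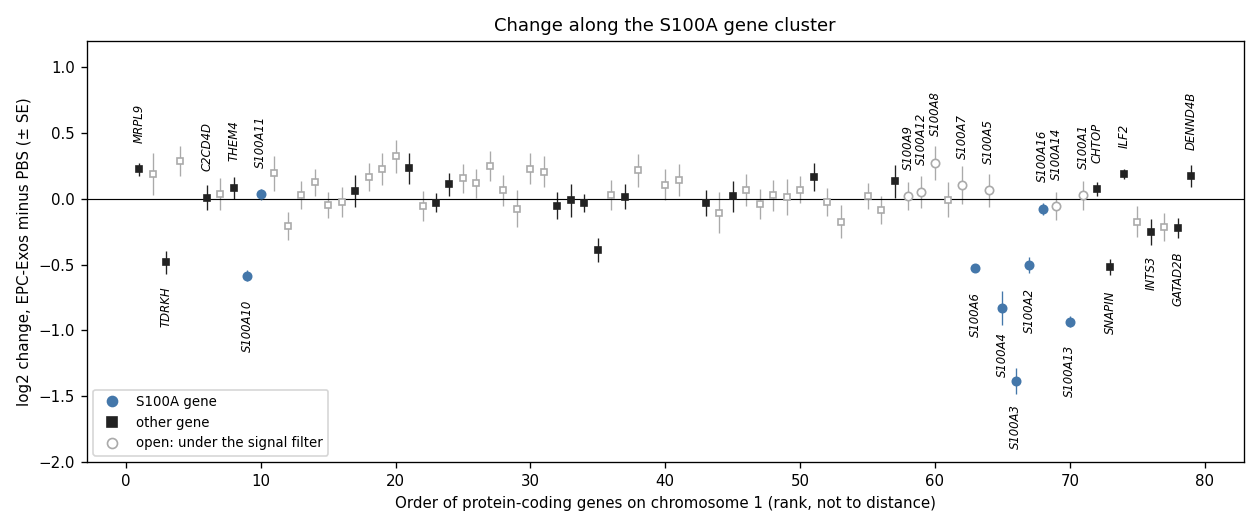
Change (vertical axis, log2 signal with EPC-Exos minus PBS, bars are limma SE) of the protein-coding genes on chromosome 1 in RefSeq order from 8 genes before S100A10 to 8 genes after S100A1. Circles are the S100A members, squares the other genes, S100A7A among them, and open marks the genes under the filter. The 6 S100A genes called lower stand at -0.50 or below, next to S100A genes near 0 such as S100A11 at 0.03 and S100A16 at -0.08.

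Partner genes were counted in 6 lists, which together hold 97 tested genes, 21 higher, 37 lower and 39 not called. The count of each list reads against the 49.1% of all tested genes that were called, 27.3% lower and 21.7% higher, with a median change of -0.01, and no list was tested against the other genes. Of the plasminogen system and binding partners of the ANXA2 and S100A10 complex, 7 of 15 tested genes rose and 6 fell, with a median change of 0.14. The urokinase receptor gene PLAUR (1.53 ± 0.060) and PLAT, tissue plasminogen activator (0.71 ± 0.057), rose, while PLAU, urokinase (-1.43 ± 0.062), and AHNAK2, a giant scaffold protein (-1.67 ± 0.073), fell, each at an adjusted p of 2.45e-08 or lower in limma. The S100A10 binder AHNAK, named after its values were seen, fell from 12.33 ± 0.013 to 12.10 ± 0.034.

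Of the S100 receptors and intracellular binding partners, 5 of 21 rose and 6 fell, while 10 missed the threshold, and their median change was 0.01. FKBP4 (1.07 ± 0.050) and STIP1 (0.56 ± 0.056), which are Hsp90 co-chaperones, rose, and LGALS3, galectin-3 (-1.21 ± 0.045), and MDM2, the p53 ubiquitin ligase (-1.01 ± 0.075), fell, each at an adjusted p of 4.48e-07 or lower. The receptor genes AGER, which encodes RAGE (0.14 ± 0.089), and TLR4 (-0.02 ± 0.066) did not pass. Of the same list BSG fell (-0.22 ± 0.058, adjusted p = 0.00454 in limma), while ALCAM and MCAM were not called. CACYBP, the S100A6 partner, rose by 0.30 ± 0.043 as S100A6 fell. The S100A4 target MYH9 had a change of 0.04 ± 0.040 without a call, and MYH10 fell (-0.18 ± 0.051, adjusted p = 0.00699 in limma). AGER, TLR4, BSG, ALCAM, MCAM, CACYBP, MYH9 and MYH10 were named with their values in view.

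Of the annexin partners and membrane repair genes, 11 of 21 fell, 3 rose and 7 were not called, and the median was -0.22. The repair genes DYSF, dysferlin (-0.50 ± 0.099), and EHD2, an ATPase of caveolae (-0.45 ± 0.066), fell, as did the myelin gene MBP (-0.81 ± 0.11). The scramblase gene PLSCR1 rose (0.99 ± 0.041), and the adjusted p of these 4 genes was 0.000527 or lower. Without _x_at and _s_at probe sets the DYSF change was -0.22 and not called (adjusted p = 0.132). The formyl peptide receptor genes FPR1 and FPR2, which bind annexin A1, lay under the filter, with both means of each gene at or below the highest background control of 4.97.

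Other calcium-dependent membrane binders and EF-hand sensors split, with 5 of 21 higher, 8 lower and 8 not called, and a median of -0.04. EFHD2 (0.75 ± 0.065) and the neuronal calcium sensor gene NCS1 (0.48 ± 0.069) rose, and HPCAL1 (-0.63 ± 0.047) and CHP1, a calcineurin-like cofactor of sodium-proton exchangers (-0.63 ± 0.050), fell, each at an adjusted p of 2.22e-05 or lower. A list of 23 symbols held fused S100 genes, cornified envelope genes and other genes of the cluster, such as PGLYRP4. It held loricrin as both LORICRIN and LOR, did not hold every gene of the cluster and left out LCE1C. A probe set was found for 22 symbols, of which 6, PGLYRP4 among them, passed the filter. In limma 0 of these 6 were called, and 0 had an unadjusted p under 0.05. LCE3D (0.23 ± 0.12) and SPRR2F (0.16 ± 0.11) had the smallest p (adjusted p = 0.12 and 0.223). Without PBS replicate 2 or EPC-Exos replicate 1, LCE3D was called (adjusted p = 0.0434 and 0.0259).

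Of a wider list of neighbours of the cluster, 6 of 13 tested genes were lower and 1 was higher, while 6 missed the threshold, and the median change was -0.11. CREB3L4, a membrane-bound transcription factor (-0.73 ± 0.11), SNAPIN, a vesicle-docking protein (-0.52 ± 0.062), the small GTPase gene RAB13 (-0.24 ± 0.034) and INTS3, a subunit of the Integrator complex (-0.25 ± 0.10), fell. The INTS3 call (adjusted p = 0.0485) was lost in 9 of 19 alternative settings. Among them were the omission of PBS replicate 2, PBS replicate 3, EPC-Exos replicate 1 or EPC-Exos replicate 3, with adjusted p-values in limma of 0.0991, 0.236, 0.131 and 0.19.

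**Figure D5:**
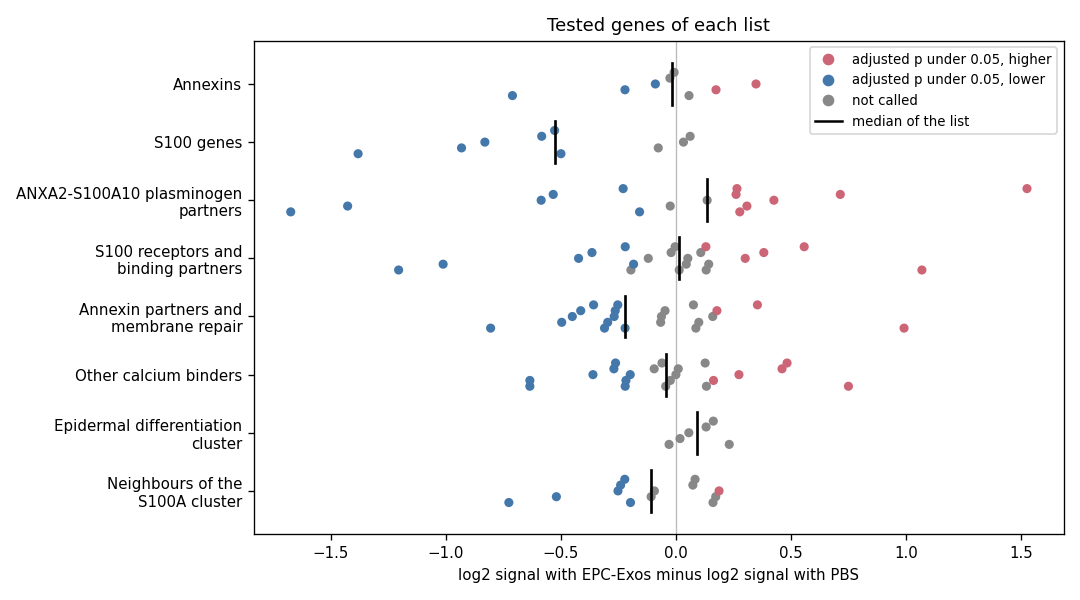
Change (horizontal axis, log2 signal with EPC-Exos minus PBS) of each tested gene in the 2 families and the 6 partner lists, with the list's median as a black bar. The median of the S100 genes lies at -0.53, and those of the partner lists between -0.22 and 0.14.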

How the data were processed

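RNA of 6 HMEC-1 samples was hybridised to Affymetrix arrays after 3' IVT labelling, per the labels' protocols. The table deposited by the authors gives a log2 signal for every probe set on each array. The submitters' processing notes name MAS5 without a role, and how the authors corrected background and scaled the arrays is not given in the sources used here. The log2 scale was read from the range, and no further normalization was applied. The number of arrays limits the precision.

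Of 49395 probe sets, 44988 had 1 gene symbol in the platform annotation, 1832 several, 2473 none and 102 were controls. All 69 member probe sets matched the RefSeq table of GRCh38.p14 by gene ID and symbol. Each gene was read from the probe set with its highest mean signal. limma 3.58.1 in R 4.3.3 (lmFit, eBayes with a variance trend) compared groups with no covariate, two-sided, and p-values were adjusted over all tested genes. The code of the fit was run on simulated data with independent noise and few changed genes. These data have many called genes, so that run does not show how the fit performs on them. Of each partner list up to 4 called genes were named by size of change, or the 2 of smallest p. Members and lists were chosen with earlier results of these data known, and the 3 within-array pairs and the motifs after the values were seen. Alternatives were 3 array scalings, offsets of 16 and 64, no filter or the 60th percentile, the mean of probe sets, no _x_at and _s_at probe sets, no trend, array weights, a test against a 1.2-fold change, a replicate block and omission of each array in turn.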

Additional observations from a re-analysis of the deposited data

How the results depend on the processing

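The member count of 11 stayed between 9 and 11 in every alternative but the limma test against a 1.2-fold change, which called 7 members, 7 lower and 0 higher, and 1841 of all genes and 21 partner genes instead of 5748 and 58. Without the filter 10 members were called, of which 9 were among the 11, as ANXA5 and ANXA6 were lost and ANXA10 was added. Members called higher were 1 instead of 2 with quantile scaling, cyclic loess, no variance trend or array weights. Without the filter they were ANXA3 and ANXA10. Leaving out 1 array gave 9 to 10 members, 1 to 2 higher and 8 to 9 lower, 4975 to 5660 of all genes and 50 to 61 partner genes. The 6 S100 genes called lower and ANXA4 kept direction and call in every alternative that could test them. Deviations from the group means correlated weakly between samples of the same replicate number (0.20, 0.18 and 0.077). Samples of unlike number were not compared, so whether the numbers pair the samples was not settled. With the replicate block 11 members, 6118 of all genes and 62 partner genes were called. Signals near the Tag controls limit what can be seen for 12 members.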

Other observations

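Probe sets that list several genes were left out of the counts. Of the 5 that list ANXA8 together with ANXA8L1 and LINC00842, 4 were lower with EPC-Exos, by 0.71 to 0.92 on the log2 scale, each called in the fit over all probe sets. Their mean log2 signals were 8.03, 8.75, 8.05 and 10.30 with PBS and 7.18, 7.95, 7.13 and 9.59 with EPC-Exos, while the probe set of ANXA8 alone was at 5.40 and 5.39. Which of the listed genes gave the signal cannot be told. ANXA2R, which encodes a receptor for annexin A2 and lies outside the rule, fell from 7.09 to 6.60 (-0.49 ± 0.099, adjusted p = 0.000852 in that limma fit). Of the 3 probe sets of S100PBP, which encodes a binder of S100P, 1 was called lower (-0.36 ± 0.063) and the others changed by 0.01 and 0.08.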
